A study of Homo sapiens with 8 samples.

Results

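The genes described are 10 that respond to low oxygen or carry out glycolysis, namely VEGFA, CA9, SLC2A1, HK2, PFKFB3, LDHA, PGK1, ENO1, PDK1 and BNIP3. They were chosen by gene name, with earlier results of these data known. All 10 were listed in both tables, which share 26360 genes. The RNA came from Kyse510, an established line of human esophageal squamous cell carcinoma cells, and each of the 8 conditions has a single library, read from both ends over 150 bases. For the inhibitor experiment, cells were given DMSO vehicle, 7 µM SP2509 (an inhibitor of the histone demethylase LSD1), 7 µM UNC0642 (an inhibitor of the histone methyltransferase G9a) or both for 2 days, and no separate doses are given for the combination. For the knockdown experiment, Kyse510 lines carrying a doxycycline- (Dox-) inducible shLSD1 or shG9a hairpin had been selected with puromycin for 14 days, and each line was either left without Dox or given Dox for 2 days. Each treated library was compared with its own control, which was vehicle for the inhibitors and the same line without Dox for the hairpins. The 3 inhibitor comparisons share the vehicle library. No cells without a hairpin that received Dox were analysed here, so Dox itself and the loss of the target cannot be told apart.

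When oxygen is scarce, prolyl hydroxylases of the EGLN family no longer mark the alpha subunits of hypoxia-inducible factor (HIF) for destruction by VHL. The stabilised subunit pairs with ARNT, binds short DNA elements with an ACGTG or GCGTG core, and switches on genes for glucose uptake, glycolysis, pH control, blood vessel growth and mitophagy. Much of this control acts on HIF protein rather than on its mRNA. Squamous carcinomas are known for high glucose uptake, and several glycolytic genes also answer to other regulators such as MYC.

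Library totals estimated from the deposited values ranged from 15662035 to 17889466 reads, where 1 read means 1 fragment as counted in those values. The values are FPKM, which scales fragment numbers to gene length and to sequencing depth. A change is given as the log2 ratio of FPKM + 1, and a gene is called higher or lower when its change reached 1.3-fold with at least 1 FPKM in 1 of the 2 libraries. No difference has a replicate check, and the 95% intervals given for ratios of FPKM come from read numbers by an exact binomial (Clopper-Pearson) method and cover counting error only. KDM1A, which encodes LSD1, went from 26.0 to 6.29 FPKM with Dox in the shLSD1 line, and EHMT2, which encodes G9a, from 7.85 to 4.76 FPKM in the shG9a line. Of the squamous markers, TP63 lay between 18.3 and 127 FPKM and KRT5 between 74.6 and 734 FPKM over the 8 libraries. Others were low in some libraries, such as KRT6A (0.676 FPKM) and KRT14 (1.93 FPKM) with vehicle and SOX2 (0.313 FPKM) with SP2509. The leukocyte marker PTPRC stayed at or below 0.0425 FPKM. The listed markers of leukocytes, endothelium, fibroblasts and muscle summed to between 7.08 FPKM with vehicle and 19.7 FPKM in the shLSD1 line with Dox, of which CDH5 made up 3.28 and 14.0 FPKM, and 5 to 7 of the 8 or 9 listed were under 1 FPKM. The 7 squamous markers summed to between 411 FPKM (shLSD1 line with Dox) and 4620 FPKM (SP2509). KRT17 made up 265 and 3716 FPKM of these sums. The 7 markers did not move as 1 group. With SP2509, 5 were higher and 1 lower of 7 tested (21% and 39.9% of all genes). The counts were 3 and 3 of 7 with UNC0642 (18.2% and 16.9%) and 3 and 4 of 7 with both (31.4% and 31.7%). With Dox they were 1 and 2 of 6 in the shLSD1 line (24.8% and 12.3%) and 4 and 2 of 7 in the shG9a line (32.9% and 17.6%). KRT17 had the same direction as most of the 10 genes in all 5 comparisons (3.51, 1.31 and 0.87 with SP2509, UNC0642 and both, -2.71 and -3.33 with Dox in the shLSD1 and shG9a lines). SOX2 had the opposite direction in all 5 (-3.88, -1.70, -3.56, 1.76 and 2.51 in the same order). KRT14 (1.72, 1.67, 1.92, -0.36 and 1.19) and DSG3 (-0.086, -1.25, -1.48, 0.16 and -1.20) had neither order, and the part of these markers in the results was not tested. In bulk RNA, fewer cells of a type and less RNA per cell cannot be told apart.

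The sequence just upstream of the start site was available from RefSeq (GRCh38.p14) for 9 of the 10 genes, in 13 windows of 250 bases. VEGFA had no window. The core ACGTG, on either strand, was present in 8 of the 13 windows (61.5%) and in at least 1 window of 7 of the 9 genes, against 18.5% of 35116 windows over all genes. Both cores occur often in CpG-rich promoters, and GCGTG was found in 32.2% of all windows. Sites of GCGTG are not marked in the sequences below. In the first window of each gene, BNIP3 holds 4, ENO1 holds 2, and HK2, PGK1 and PFKFB3 hold 1 each. CA9, SLC2A1, LDHA and PDK1 hold none there. The windows of CA9 (chr9:35673678-35673927 on the plus strand), HK2 (chr2:74833877-74834126 on the plus strand), LDHA (chr11:18394313-18394562 on the plus strand), PGK1 (chrX:78103998-78104247 on the plus strand) and BNIP3 (chr10:131981924-131982173 on the minus strand) are shown because their first window holds the core. These 5 genes were higher in all 3 inhibitor libraries and lower in both Dox libraries. So were PFKFB3 and PDK1, whose first window lacks ACGTG but whose second window holds it (1 site in PFKFB3 and 2 in PDK1). SLC2A1 and ENO1 had no ACGTG in their only window. The window of SLC2A1 (chr1:42958869-42959118 on the minus strand), the gene with the largest decrease, is shown beside them. Capitals mark ACGTG or its reverse complement CACGT, and where these overlap they form the palindrome CACGTG, which is also the E-box that MYC and USF factors bind.
CA9: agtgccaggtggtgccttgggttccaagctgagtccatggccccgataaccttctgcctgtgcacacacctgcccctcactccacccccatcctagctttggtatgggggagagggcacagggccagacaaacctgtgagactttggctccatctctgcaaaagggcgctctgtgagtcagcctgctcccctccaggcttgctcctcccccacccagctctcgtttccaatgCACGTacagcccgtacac
HK2: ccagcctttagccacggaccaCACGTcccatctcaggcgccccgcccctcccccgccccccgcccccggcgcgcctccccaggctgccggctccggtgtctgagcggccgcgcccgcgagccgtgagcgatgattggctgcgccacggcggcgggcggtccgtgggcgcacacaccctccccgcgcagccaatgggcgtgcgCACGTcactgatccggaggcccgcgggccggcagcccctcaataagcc
LDHA: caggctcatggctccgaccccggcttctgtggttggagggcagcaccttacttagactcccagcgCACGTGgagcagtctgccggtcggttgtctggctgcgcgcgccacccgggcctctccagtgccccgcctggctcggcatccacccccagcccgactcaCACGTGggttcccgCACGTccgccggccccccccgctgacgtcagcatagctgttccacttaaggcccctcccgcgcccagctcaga
PGK1: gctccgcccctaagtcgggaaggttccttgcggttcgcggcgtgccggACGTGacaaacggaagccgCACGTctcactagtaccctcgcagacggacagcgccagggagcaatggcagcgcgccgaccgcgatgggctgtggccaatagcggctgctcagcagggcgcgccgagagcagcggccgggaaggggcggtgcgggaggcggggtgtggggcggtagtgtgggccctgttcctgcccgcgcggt
BNIP3: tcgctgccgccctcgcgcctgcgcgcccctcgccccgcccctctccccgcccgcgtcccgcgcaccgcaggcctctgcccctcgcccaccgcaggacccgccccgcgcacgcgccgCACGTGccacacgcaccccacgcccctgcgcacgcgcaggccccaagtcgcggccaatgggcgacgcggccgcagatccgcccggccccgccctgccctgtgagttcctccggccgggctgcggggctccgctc
SLC2A1: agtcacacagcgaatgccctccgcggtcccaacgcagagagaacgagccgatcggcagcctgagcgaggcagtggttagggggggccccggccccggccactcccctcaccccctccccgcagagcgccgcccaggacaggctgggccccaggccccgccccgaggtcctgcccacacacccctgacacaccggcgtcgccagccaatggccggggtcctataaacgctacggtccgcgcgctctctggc
In the CA9 window the core lies near the start site, whereas LDHA holds 3 sites, 2 of them palindromes, and BNIP3 holds 1 palindrome. The windows shown for PGK1 and HK2 each hold 2 sites outside a palindrome, and the HK2 window that is not shown holds 2 palindromes. The SLC2A1 window has neither core, which says only that these letters are not in these 250 bases. A match of letters is a description of the sequence and was not linked to binding here.

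VEGFA encodes the main secreted growth factor for blood vessels and lies on chromosome 6 from 43770184 to 43786487 (plus strand), where this and the other gene positions are on GRCh38 as in the deposited tables. Its level was 26.0 FPKM in vehicle-treated cells, 16.6 after SP2509, 24.8 after UNC0642 and 36.0 after both inhibitors. In the knockdown experiment it had 50.3 FPKM without and 24.3 with Dox in the shLSD1 line, and 47.9 without and 8.75 with Dox in the shG9a line. VEGFA was the only one of the 10 genes that was lower with SP2509, 1.57-fold (1.51 to 1.63), while it was within the fold limit with UNC0642 and 1.39-fold higher (1.34 to 1.43) with both. Both Dox libraries were below their controls, 2.07-fold (2.01 to 2.14) in the shLSD1 line and 5.47-fold (5.22 to 5.73) in the shG9a line.

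CA9 encodes carbonic anhydrase IX, a cell surface enzyme that handles the acid made by glycolysis and is widely used as a marker of hypoxia. The gene lies on chromosome 9 from 35673856 to 35681159 (plus strand). CA9 had 12.1 FPKM with vehicle, against 68.2 with SP2509, 66.2 with UNC0642 and 87.2 with both. Without Dox it had 115 FPKM in the shLSD1 line and 95.9 in the shG9a line, and with Dox it had 16.8 and 4.74 FPKM. All 3 inhibitor libraries stood well above vehicle, 5.64-fold (5.01 to 6.37), 5.48-fold (4.87 to 6.19) and 7.21-fold (6.41 to 8.14). With Dox it was 6.87-fold lower (6.24 to 7.56) in the shLSD1 line and 20.3-fold lower (17.1 to 24.2) in the shG9a line, where the Dox library held 137 reads. Ranked by change among 13244 genes tested with UNC0642, CA9 was number 44 from the top, and among 13080 genes tested in the shG9a line it was number 11 from the bottom.

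SLC2A1, on chromosome 1 from 42925375 to 42959173 (minus strand), encodes GLUT1, the glucose transporter of the plasma membrane in most cells. The vehicle library had 151 FPKM, against 331 with SP2509, 255 with UNC0642 and 159 with both inhibitors. The uninduced lines had 898 FPKM (shLSD1) and 864 FPKM (shG9a), and the induced lines had 113 and 35.1 FPKM. Each inhibitor alone went with a higher level, 2.19-fold (2.15 to 2.24) and 1.69-fold (1.655 to 1.73), and the library with both lay near vehicle at 1.06-fold (1.03 to 1.08). SLC2A1 had the largest decrease of the 10 genes in both lines, 7.93-fold (7.77 to 8.11) and 24.6-fold (23.7 to 25.5). It ranked number 16 from the bottom of 12970 genes in the shLSD1 line and number 4 of 13080 genes in the shG9a line.

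HK2 (chromosome 2, 74833981 to 74893359, plus strand) encodes hexokinase 2, which traps glucose in the cell by phosphorylating it. HK2 was at 35.9 FPKM with vehicle and at 150.3, 96.3 and 136 FPKM with SP2509, UNC0642 and both. In the shLSD1 line it went from 119 FPKM without Dox to 30.1 with it, and in the shG9a line from 114 to 13.0 FPKM. The increase with SP2509 (4.18-fold, 4.03 to 4.34) was larger than that with UNC0642 (2.68-fold, 2.58 to 2.79), and the decrease with Dox was larger in the shG9a line (8.74-fold, 8.26 to 9.25) than in the shLSD1 line (3.94-fold, 3.79 to 4.10).

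PFKFB3 (chromosome 10, 6144934 to 6254644, plus strand) encodes the enzyme that makes fructose 2,6-bisphosphate, the strongest allosteric activator of phosphofructokinase. The vehicle library had 20.5 FPKM, and the libraries with SP2509, UNC0642 and both had 57.5, 56.9 and 56.6 FPKM. These 3 levels could not be separated by their read numbers, since the ratio of SP2509 to UNC0642 was 1.01 (0.976 to 1.05) and that of both to SP2509 was 0.984 (0.949 to 1.02). With Dox, PFKFB3 went down in the shLSD1 line from 109 to 19.8 FPKM, 5.48-fold (5.23 to 5.75), and in the shG9a line from 98.8 to 22.9 FPKM, 4.31-fold (4.13 to 4.51).

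Both enzymes of the lower part of glycolysis, PGK1 and ENO1, are abundant housekeeping genes as well as HIF targets. PGK1, which makes the first ATP of the pathway, stood at 121 FPKM in the vehicle library and at 254, 276 and 304 FPKM with SP2509, UNC0642 and both. The shLSD1 line had 353 FPKM without and 158 with Dox, and the shG9a line 329 and 122 FPKM. PGK1 was above vehicle 2.09-fold (2.04 to 2.14), 2.28-fold (2.22 to 2.33) and 2.504-fold (2.45 to 2.56), and below its control 2.24-fold (2.20 to 2.28) and 2.70-fold (2.65 to 2.76). The knockdown table gives PGK1 a longer span on chromosome X (77910739 to 78129296) than the inhibitor table (78065188 to 78129296), and there it overlaps ATP7A, which had at most 1.42 FPKM. ENO1 (chromosome 1, 8861002 to 8879249 in the inhibitor table, minus strand), the enolase of most tissues, was the most abundant of the 10, with 772 FPKM in vehicle-treated cells and 953, 1114 and 846 FPKM after SP2509, UNC0642 and both. It had 1232 FPKM without and 448 with Dox in the shLSD1 line and 1133 and 575 FPKM in the shG9a line. Of the 3 inhibitor libraries, ENO1 reached the fold limit in that with UNC0642 alone (1.44-fold, 1.43 to 1.46), and its decreases with Dox were 2.75-fold (2.72 to 2.78) and 1.97-fold (1.95 to 1.99). Both genes have processed copies elsewhere in the genome, and how such reads were counted is not given in the sources used here.

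LDHA and PDK1 steer pyruvate away from mitochondrial oxidation, LDHA by converting it to lactate and PDK1 by phosphorylating and thereby inhibiting pyruvate dehydrogenase. LDHA (chromosome 11, 18394388 to 18408425) stood at 91.7 FPKM in the vehicle library and at 251, 265 and 316 FPKM with SP2509, UNC0642 and both. With Dox it went from 241 to 90.1 FPKM (2.68-fold lower, 2.62 to 2.74) and from 212 to 98.8 FPKM (2.15-fold lower, 2.10 to 2.20) in the shLSD1 and shG9a lines, respectively. LDHA also has processed copies. PDK1 (chromosome 2, 172555373 to 172608669) was the least abundant of the 10, at 3.23 FPKM in vehicle-treated cells and 8.95, 5.15 and 5.98 FPKM after SP2509, UNC0642 and both. It had 6.07 and 1.46 FPKM without and with Dox in the shLSD1 line, and 5.59 and 1.47 FPKM in the shG9a line. The ratio of the 2 induced libraries, 1.01 (0.875 to 1.17), was within counting error. At this level the log2 changes on the FPKM + 1 scale (1.23, 0.54 and 0.72 with the inhibitors) understate the FPKM ratios, which were 2.77 (2.55 to 3.01), 1.59 (1.46 to 1.74) and 1.85 (1.69 to 2.02).

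BNIP3 (chromosome 10, 131966455 to 131982013, minus strand) encodes a receptor in the outer mitochondrial membrane that marks mitochondria for autophagy. From 23.8 FPKM in the vehicle library it was up to 122 FPKM after SP2509, 62.9 after UNC0642 and 129 after both. In the lines it went from 140.5 to 31.3 FPKM (shLSD1) and from 129 to 27.2 FPKM (shG9a) with Dox. The SP2509 library was 5.13-fold (4.89 to 5.38) and the combined library 5.42-fold (5.16 to 5.68) above vehicle, against 2.64-fold (2.51 to 2.78) with UNC0642, and the 2 decreases were alike in size, 4.48-fold (4.31 to 4.67) and 4.73-fold (4.53 to 4.94). BNIP3 overlaps the antisense gene AL162274.2, which had at most 6.77 FPKM in the inhibitor libraries, and how strand was treated in counting is not given in the sources used here.

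**Figure D1:**
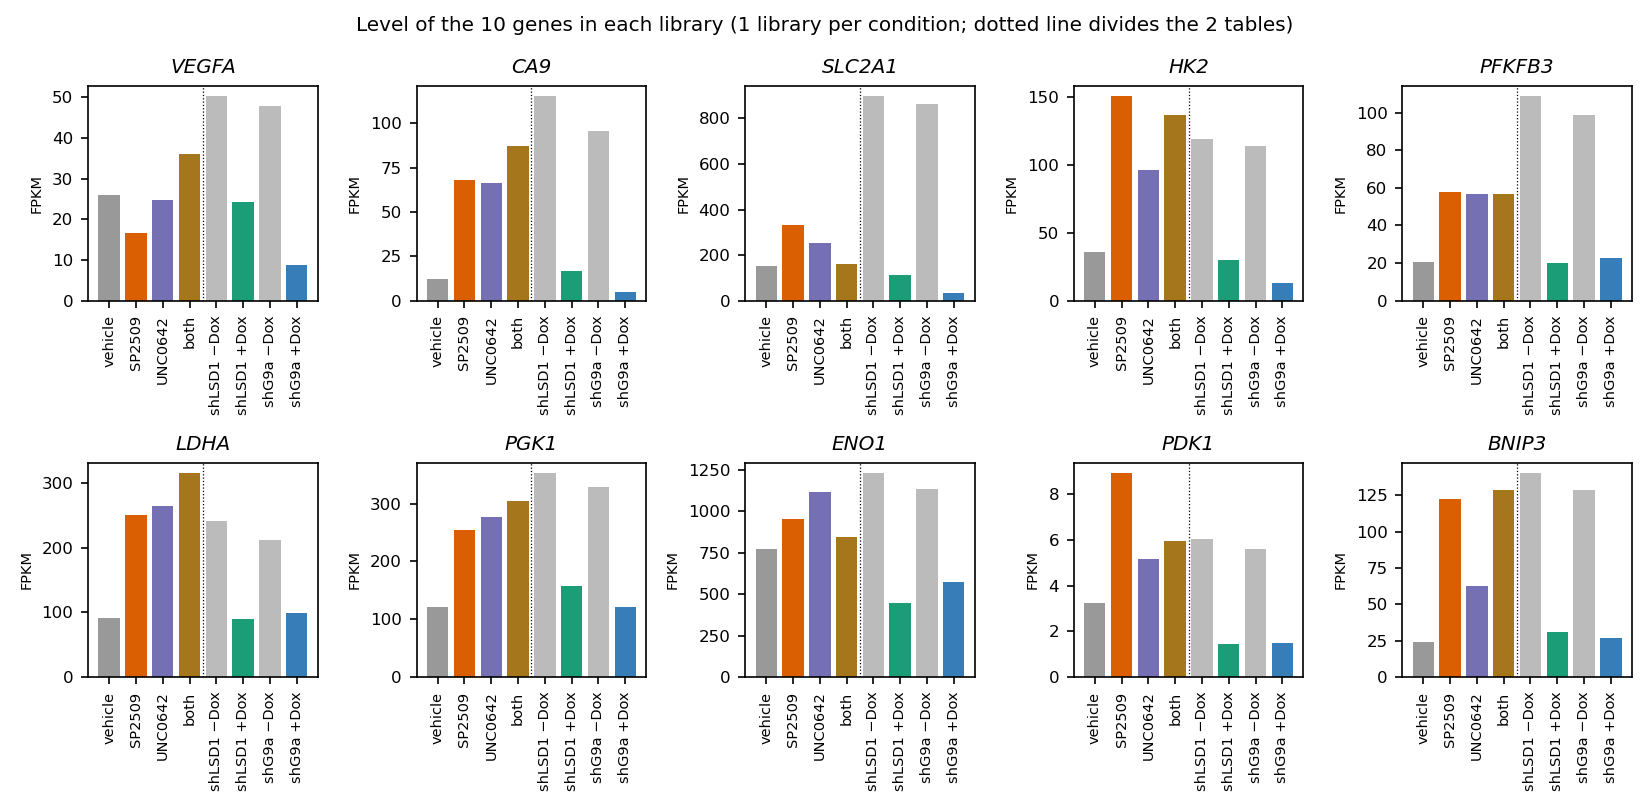
FPKM of each of the 10 genes (1 panel per gene, bars from 0, own scale) in the 8 libraries, with the inhibitor table left and the knockdown table right of the dotted line. CA9 stands at 12.1 FPKM with vehicle and between 66.2 and 87.2 with inhibitors, and every gene is lower in each Dox library than in the same line without Dox.

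Read across the genes, most of the 10 were higher with each inhibitor and all 10 were lower with Dox in both lines. With SP2509, 8 genes were higher and VEGFA was lower, and ENO1 was within the fold limit, where 21% of 13342 genes tested were higher and 39.9% were lower. All 8 reached 2-fold, which 8.25% of the genes tested did in that direction, while VEGFA did not reach 2-fold (13% of genes were lower by that much). With UNC0642, 9 genes were higher (18.2% of 13244 genes tested), 6 of them at least 2-fold (4.79%), and 0 were lower (16.9%, or 3.12% at 2-fold). With both inhibitors, 8 genes were higher (31.4% of 13907 genes tested) and 6 reached 2-fold (13%), while 0 were lower (31.7%, or 9.57% at 2-fold) and SLC2A1 and ENO1 were within the limit. In the shLSD1 line all 10 were lower with Dox (12.3% of 12970 genes tested), each at least 2-fold (3.27%), and 0 were higher (24.8%, or 3.36% at 2-fold). In the shG9a line all 10 were again lower (17.6% of 13080 genes tested), and all but ENO1 reached 2-fold (6.02%), with 0 higher (32.9%, or 5.13% at 2-fold). ENO1 with SP2509, at 0.30 on the log2 scale, passes the limit at 0.41 once changes are centred on the median.

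The median log2 change of the 10 genes was 1.34 with SP2509, 1.27 with UNC0642 and 1.37 with both, against medians over all genes tested of -0.21, -0.013 and -0.017. It was -1.73 in the shLSD1 line and -2.13 in the shG9a line, where the medians over all genes tested were 0.13 and 0.18. The 2 Dox comparisons have separate controls. Of 12325 genes tested in both, 905 (7.34%) were lower in both and 246 (2%) were at least 2-fold lower in both, and 10 and 9 of the 10 genes were among them.

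**Figure D2:**
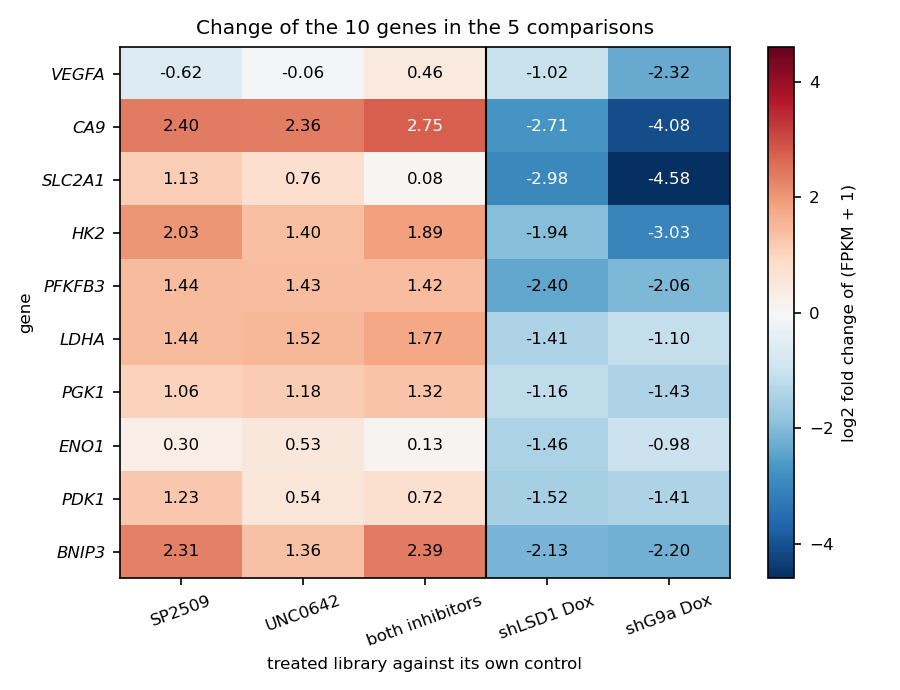
Log2 change of FPKM + 1 for the 10 genes (rows) in the 5 comparisons (columns), with red for higher and blue for lower than the own control of each library. The 2 Dox columns run from -0.98 to -4.58 throughout, while VEGFA at -0.62 is the lowest value of the 3 inhibitor columns.

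**Figure D3:**
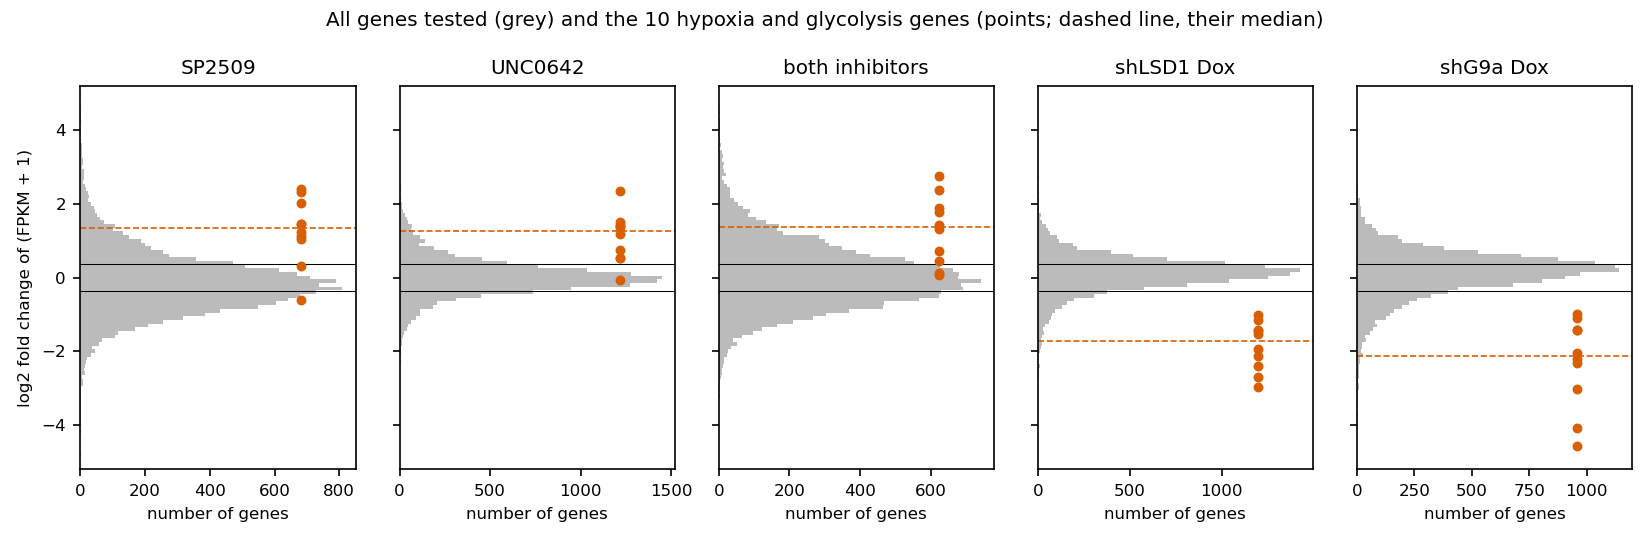
Histograms of the log2 change of all genes tested in each comparison (grey, the axis ends at a change of about 5), with the 10 genes as points, their median as a dashed line and the 1.3-fold limits as thin lines. The dashed lines lie at 1.34, 1.27 and 1.37 with the inhibitors and at -1.73 and -2.13 with Dox.

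The 2 inhibitors differed from each other in some of the genes. The SP2509 library was above the UNC0642 library for BNIP3 (ratio of FPKM 1.94, 1.88 to 2.01), PDK1 (1.74, 1.63 to 1.86), HK2 (1.56, 1.52 to 1.600) and SLC2A1 (1.296, 1.27 to 1.32). It was below for VEGFA (0.667, 0.642 to 0.694), ENO1 (0.856, 0.847 to 0.865), PGK1 (0.918, 0.902 to 0.934) and LDHA (0.947, 0.932 to 0.963). For CA9 the ratio was 1.03 (0.967 to 1.10), so the reads did not separate the libraries. These intervals compare 2 libraries, not 2 treatments, since the spread between cultures was not measured.

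The combined library differed from the SP2509 library most in SLC2A1 and VEGFA. For SLC2A1 it held 0.481 times (0.471 to 0.491) the level with SP2509 alone. For VEGFA it held 2.18 times (2.10 to 2.26) that level. Among the libraries of the inhibitor experiment, the combined one was highest for VEGFA, CA9, LDHA, PGK1 and BNIP3. The margin over SP2509 was small for BNIP3 (1.06 times, 1.03 to 1.08).

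Between the lines, the uninduced levels of each gene lay close together, with shG9a at 0.832 (CA9) to 0.962 (SLC2A1) times the shLSD1 level. With Dox the lines differed more. CA9, SLC2A1, VEGFA and HK2 in the induced shG9a line stood at 0.282 (0.232 to 0.342), 0.310 (0.298 to 0.324), 0.360 (0.343 to 0.379) and 0.433 (0.406 to 0.461) times their level in the induced shLSD1 line. ENO1, PFKFB3 and LDHA were higher there, at 1.28 (1.27 to 1.3004), 1.16 (1.09 to 1.23) and 1.10 (1.07 to 1.13) times. Side by side, the uninduced lines had more of each gene than vehicle-treated cells, from 1.596 (ENO1) to 9.54 (CA9) times in the shLSD1 line and from 1.47 (ENO1) to 7.94 (CA9) times in the shG9a line. These ratios cross tables that were made separately. Of the 26360 shared genes, 919 have other bounds in the other table, SLC2A1, PGK1 and ENO1 among them, and the length that fits the ENO1 values was 3958 bases in the inhibitor table and 5276 in the knockdown table.

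The wider hypoxia response was read from a list of 22 other HIF target genes. With SP2509, 16 of the 20 tested were higher and 2 lower (21% and 39.9% of all genes), with a median change of 1.10. The largest increases were those of BHLHE40 (2.35), a circadian and hypoxia-responsive repressor, KDM3A (2.35), an H3K9 demethylase, and NDRG1 (2.09), while STC2 (-1.10) and VLDLR (-0.73) were lower. With UNC0642, 18 of 21 were higher and 1 was lower (18.2% and 16.9% of all genes, median 1.07). CA12 (2.45), a carbonic anhydrase related to CA9, NDRG1 (1.95) and PFKFB4 (1.72) led, with STC2 at -0.44. With both, 18 of 21 were higher and 1 lower (31.4% and 31.7% of all genes, median 1.41). KDM3A (1.95), P4HA2 (1.93), a collagen prolyl hydroxylase, and ANGPTL4 (1.91), a secreted inhibitor of lipoprotein lipase, led here. DDIT4, an inhibitor of mTORC1 that also answers to stress, was the gene that was lower (-1.33).
With Dox, 20 of 21 were lower in each line and 0 were higher, with medians of -1.63 in the shLSD1 line and -2.11 in the shG9a line. Of all genes tested, 12.3% were lower and 24.8% higher in the shLSD1 line, and 17.6% and 32.9% in the shG9a line. ANGPTL4 (-3.43 and -3.74), NDRG1 (-3.04 and -3.93) and ADM (-2.85 and -3.52), which encodes the vasodilator adrenomedullin, led both. NDRG1 had 359 FPKM without and 42.9 with Dox in the shLSD1 line and 336 and 21.1 FPKM in the shG9a line. VLDLR, the remaining gene, changed by 0.065 and -0.25.

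Medians were nearer 0 among the other glycolytic genes. Of 16 enzymes and transporters, 8 were higher and 3 lower with SP2509 (21% and 39.9% of all genes, median 0.38). With UNC0642, 10 were higher and 0 lower (18.2% and 16.9%, median 0.59). With both, 8 were higher and 3 lower (31.4% and 31.7%, median 0.42). ENO2, the neuronal enolase, led all 3, from 5.62 FPKM with vehicle to 29.5, 25.9 and 43.1 FPKM. ALDOC and PFKP followed with SP2509 (1.16 and 1.05) and UNC0642 (0.83 and 0.77), and ALDOA (1.03) and ALDOC (0.82) with both. The lower genes were the lactate transporter SLC16A3 (-0.64), PFKFB2 (-0.60) and LDHB (-0.56) with SP2509, and PFKM (-0.79), LDHB (-0.72) and PFKL (-0.64) with both.
Of the 15 tested with Dox, 11 were lower and 1 higher in the shLSD1 line (12.3% and 24.8% of all genes, median -0.77). In the shG9a line 12 were lower and 0 higher (17.6% and 32.9%, median -0.79). ENO2 (-2.72 and -2.07), GPI (-1.73 and -1.39), which encodes glucose-6-phosphate isomerase, and ALDOA (-1.47 and -1.32) led both lines. SLC16A3 was the gene that was higher in the shLSD1 line (0.52). ALDOA had 236 to 484 FPKM in the inhibitor table and 0.516 to 3.34 FPKM in the knockdown table, and LDHB 175 to 295 against 0.191 to 0.368 FPKM, so the 2 tables did not count these genes alike and their knockdown values rest on few reads.

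The genes of the pyruvate dehydrogenase complex, its kinases and its phosphatases were mixed in direction. Of 9 tested with SP2509, 1 was higher (21% of all genes) and 5 were lower (39.9%), with a median of -0.41. With UNC0642, 2 were higher (18.2%) and 0 lower (16.9%), with a median of -0.15, and with both, 1 was higher (31.4%) and 5 were lower (31.7%), with a median of -0.48. Several of these counts are near the shares over all genes, and nothing is read from them about the group. Of the phosphatase genes, whose products oppose the kinases, PDP1 was higher in all 3 (1.49, 0.78 and 0.82), while PDP2 had the largest decrease with SP2509 (-0.88) and was within the limit with UNC0642 (-0.15) and with both (-0.12). Genes of the complex that were lower were PDHA1 (-0.78) and DLD (-0.70) with SP2509 and DLD (-1.63), PDHA1 (-0.99) and PDHB (-0.85) with both. With Dox, 2 were higher (24.8%) and 1 was lower (12.3%) in the shLSD1 line, and 3 were higher (32.9%) and 1 was lower (17.6%) in the shG9a line, with medians of 0.20 in each. The higher genes were PDHB (0.86) and PDP1 (0.70) in the shLSD1 line and PDHA1 (0.50), PDHX (0.45) and PDHB (0.41) in the shG9a line. The kinase gene PDK3 was, like PDK1, higher with UNC0642 (0.43) and lower with Dox in both lines (-0.54 and -0.44), whereas with SP2509 it was lower (-0.41).

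Beside VEGFA, the ligand genes PGF and VEGFC were higher in each inhibitor library and lower in each Dox library. PGF, which encodes placental growth factor, had 1.71 FPKM with vehicle and 3.12, 7.89 and 11.9 FPKM with SP2509, UNC0642 and both. The shLSD1 line had 22.6 FPKM without and 1.08 with Dox, and the shG9a line 18.9 and 0.213 FPKM. VEGFC had 1.77 FPKM with vehicle and 9.47, 7.23 and 6.22 FPKM with the inhibitors, and changed by -0.69 and -0.82 with Dox in the shLSD1 and shG9a lines. VEGFB was higher with UNC0642 (0.46) and lower with Dox in the shG9a line (-0.48), and the co-receptor gene NRP1 was higher with both inhibitors (0.94). The receptor genes FLT1 and KDR stayed at or below 0.0284 FPKM. Of the 9 genes of the VEGF list, 3 to 5 were tested in a comparison. Higher were 2 of 3 with SP2509 (21% of all genes), 3 of 4 with UNC0642 (18.2%) and 4 of 5 with both (31.4%). Lower were 2 of 3 in the shLSD1 line (12.3%) and 3 of 4 in the shG9a line (17.6%). There 1 was higher (32.9%), namely NRP1 (1.41). With so few genes, several of them near 1 FPKM, nothing is read from these counts about the group.

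The mRNA of HIF1A, the oxygen-sensitive subunit, was lower with both inhibitors and higher with Dox. HIF1A stood at 123 FPKM in the vehicle library, 97.8 after SP2509, 128 after UNC0642 and 21.4 after both inhibitors. The combined library, in which 8 of the 10 genes were higher, was 5.72-fold (5.45 to 6.02) below vehicle for HIF1A. In the shLSD1 line HIF1A went from 46.6 to 98.6 FPKM with Dox, 2.11-fold higher (2.04 to 2.19), and in the shG9a line from 49.8 to 66.9 FPKM, 1.34-fold higher (1.29 to 1.40), while all 10 genes were lower. In the shG9a line its log2 change of 0.42 is near the limit of 0.38, and centring on the median (0.15 there) takes it below. HIF1A overlaps the noncoding gene HIF1A-AS2, which had at most 17.4 FPKM. EPAS1, which encodes the related subunit HIF-2 alpha, had 30.3 FPKM with vehicle, between 40.5 and 50.1 with inhibitors, and between 27.1 and 34.9 in the lines.
Of the 10 listed regulators (HIF3A was not listed in either table), 3 of 9 tested were higher and 3 lower with SP2509, where 21% and 39.9% of all genes were (median -0.10). With UNC0642, 4 of 10 were higher and 1 lower (18.2% and 16.9% of all genes, median 0.0074), and with both, 5 of 10 were higher and 3 lower (31.4% and 31.7%, median 0.31). Several of these counts are near the shares over all genes as well. Higher were EPAS1 (0.71), EGLN1 (0.70) and ARNT (0.47) with SP2509, ARNT2 (1.81, from 0.0825 FPKM with vehicle), EGLN3 (1.28) and EGLN1 (0.71) with UNC0642, and ARNT2 (2.44), EGLN3 (1.53) and CITED2 (1.24) with both. Lower were VHL (-0.85), EGLN2 (-0.67) and HIF1AN (-0.59) with SP2509, EGLN2 (-0.45) with UNC0642, and HIF1A (-2.46), ARNT (-0.62) and EGLN2 (-0.44) with both. With Dox, 2 of 9 were higher and 2 lower in each line, against 24.8% and 12.3% of all genes in the shLSD1 line and 32.9% and 17.6% in the shG9a line, with medians of 0.11 and -0.036. Beside HIF1A, the higher genes were EGLN2 (0.42) in the shLSD1 line and HIF1AN (0.51) in the shG9a line. The 2 lower genes were in each line EGLN3 (-2.68 and -4.18) and EGLN1 (-0.92 and -1.16), hydroxylases that are HIF targets themselves. EGLN3 had 111 FPKM without and 16.5 with Dox in the shLSD1 line and 107 and 4.94 FPKM in the shG9a line.

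**Figure D4:**
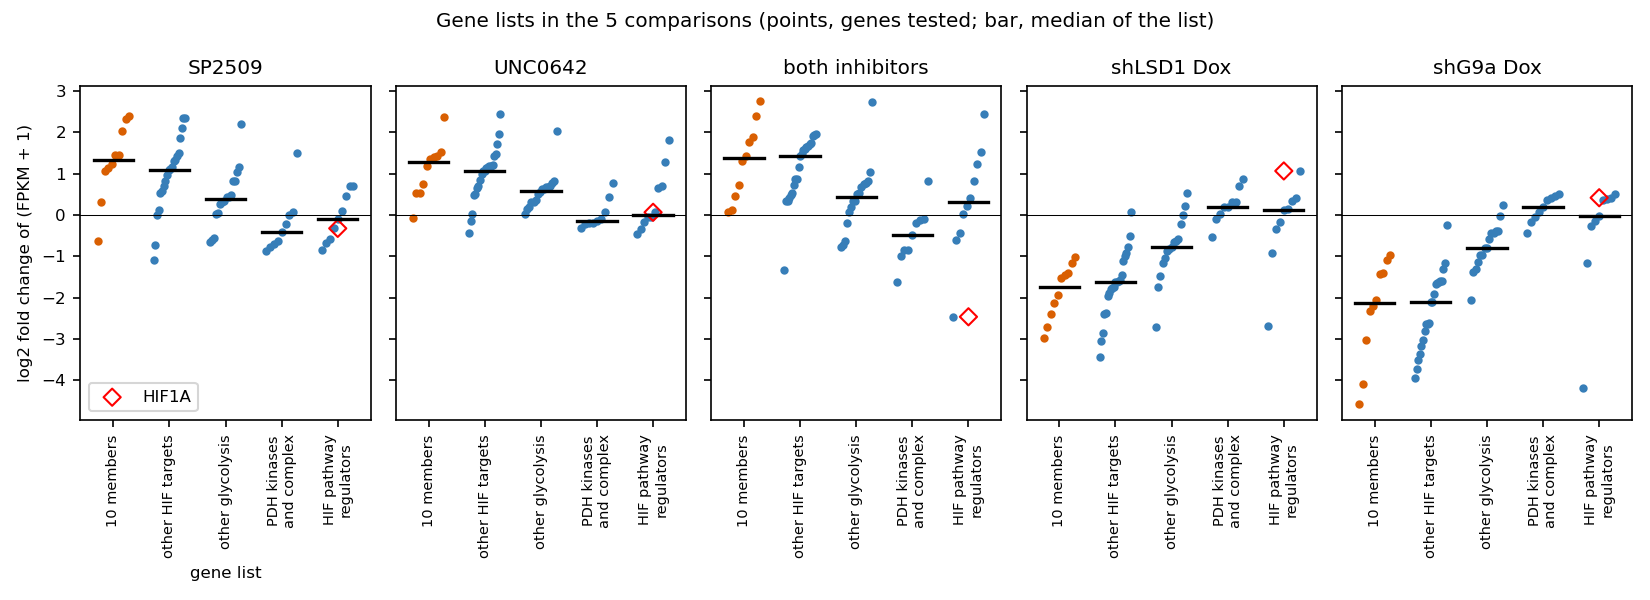
Log2 change of FPKM + 1 (points, genes tested; black bar, median of the list) for the 10 genes, other HIF targets, other glycolytic genes, the pyruvate dehydrogenase group and HIF pathway regulators in the 5 comparisons, with HIF1A as a red diamond. The other HIF targets have medians of 1.10, 1.07 and 1.41 with the inhibitors and of -1.63 and -2.11 with Dox, while HIF1A lies at -2.46 with both inhibitors and at 1.06 in the shLSD1 line.

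CA9, SLC2A1 and HK2 had the widest range over the 5 comparisons, of 6.83, 5.71 and 5.07 log2 units between their highest and lowest change. Likeness to other genes was measured as the Euclidean distance over the 5 log2 changes among 7013 genes with at least 5 FPKM in a library of each table, and smaller distances mean more alike. Nearest to CA9 were STC1 (distance 1.06), ERRFI1 (1.18) and NDRG1 (1.20), nearest to SLC2A1 were ADM (1.17), LOX (1.44) and AF064858.2 (1.47), and nearest to HK2 were SPAG4 (0.58), P4HA1 (0.60) and TMEM45A (0.66). NDRG1, ADM, LOX and P4HA1 are in the list of 22 other HIF targets, which was chosen with earlier results of these data known. STC1 changed by 1.63, 2.69 and 2.85 with SP2509, UNC0642 and both, and by -2.48 and -3.49 with Dox in the shLSD1 and shG9a lines. Of the other 9 genes described, HK2 was the nearest to CA9 (distance 1.87) and to SLC2A1 (2.83), and BNIP3 was the nearest to HK2 (1.03).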

How the data were processed

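The authors discarded reads of low quality or with adapter, aligned what remained to GRCh38.87, and deposited gene FPKM in 2 tables that hold 4 libraries each. The aligner, the counting tool and the strand setting are not given in the sources used here. Groups came from the sample labels. Log2 changes were computed with a pseudocount of 1 FPKM, and a gene was called at 1.3-fold, the fold limit of the study, with at least 1 FPKM in 1 of the 2 libraries. The p-value limit that the study set beside this fold was not applied. With 1 library per condition no test across conditions was run. Library totals were read from the steps of the FPKM values in genes with 1 exon (GENCODE release 44), where 100% of values were whole within 0.01 reads, and reads of other genes from the smallest length giving whole numbers, multiplied by up to 4 where that matched the other table. The steps were tested on simulated data. Python 3.11.15, numpy 2.4.6, pandas 2.3.3, scipy 1.17.1 and matplotlib 3.10.9 were used. Annotation columns of the tables other than name, type and position were not used. The 10 genes and the other lists were chosen with earlier results of these data known. In each list and comparison, the genes named were the up to 3 called ones that moved most each way (the marker lists are given by counts, ranges and examples instead), and other list genes given with values were chosen after their values were seen. The alternatives were a pseudocount of 0.1, no low-value filter, a minimum of 5 FPKM, fold limits of 1.5 and 2, centring on the median, trimmed-mean (TMM) scaling, the mean of both uninduced lines as control and protein-coding genes only.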

Additional observations from a re-analysis of the deposited data

Results flagged for a closer look

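Dox was compared with no Dox in both the shLSD1 and the shG9a line, and each of the 10 genes was lower in both. Among the other genes reported, 3 were past 1.3-fold in opposite directions, a difference that was not tested because each line has 1 library with and 1 without Dox. The difference between the log2 changes (shG9a line minus shLSD1 line) was 2.31 for KDM1A, the target of the first hairpin (-1.89 in the shLSD1 line and 0.43 in the shG9a line). It was 2.13 for the keratin gene KRT5 (-1.32 and 0.81). For the lactate transporter gene SLC16A3 it was -0.90 (0.52 and -0.38). The shG9a line values of KDM1A and SLC16A3 are near the limit of 0.38 in size. Centring on the median (0.15 in that line) takes KDM1A below it.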

How the results depend on the processing

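No paired analysis was possible because each condition has 1 library. Under the alternatives, 101 of the recomputed counts and medians stayed within 1.5 times the count or within the counting error, and 10 moved, none in direction. The 101 include the settings with no low-value filter and with a minimum of 5 FPKM. These could not change the results, since every gene reached 5 FPKM in at least 1 library of each comparison. They also include the fall from 9 to 6 genes higher with UNC0642 at a fold limit of 2. At a fold limit of 2, 0 genes were lower with SP2509, since VEGFA does not reach it. The median change with SP2509 was 1.45 with a pseudocount of 0.1, 1.44 centred on the median and 1.45 with TMM scaling. In the shLSD1 line it was -1.98, -1.85 and -1.86 under the same 3 settings. In the shG9a line it was -2.28 when centred, -2.29 with TMM scaling and -2.20 with the mean of the 2 uninduced lines as control. Centring moves all genes of a comparison by the median change of genes with at least 5 FPKM, which was -0.10 with SP2509, 0.12 in the shLSD1 line and 0.15 in the shG9a line, and changes given near the 1.3-fold limit (0.38 on the log2 scale) can cross it. Counting genes whose whole interval lies beyond 1.3-fold was added after the data were seen. Read numbers limit CA9 in the shG9a line with Dox (137 reads) and PDK1 with Dox (380 reads in each line), and the spread between cultures is unknown for every value.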
